A study of Homo sapiens with 6 samples.

Results

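The adhesion G protein-coupled receptors were followed in the cells labelled HCT116 on 6 Affymetrix arrays, 3 labelled Ctrl and 3 labelled CSF3. They comprise every gene whose platform symbol begins with ADGR, with CELSR1, CELSR2 and CELSR3, the human Flamingo cadherins. This gave 30 of the 18132 genes measured by probe sets of 1 gene, and 76 of 44988 such probe sets. ADGRG6 and ADGRA3 had the 8th and 9th largest fall of all genes, and the family was selected on that result of the CSF3 against Ctrl comparison, whereas the members themselves were taken by symbol. The members' changes and calls are therefore given as a description, without p-values.

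Adhesion receptors carry a long extracellular region of adhesive modules, a GAIN domain in which many of them cut themselves, and a 7-helix membrane part. The stretch behind the cut acts as a tethered agonist, and the receptors signal through heterotrimeric G proteins to RhoA or to cyclic AMP. In epithelia members of the family take part in cell adhesion, in the planar orientation of cells and in contacts with collagen and laminin.

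Both groups carry the label of the same colorectal carcinoma line, one with the treatment given as control and one as CSF3. CSF3 encodes granulocyte colony-stimulating factor, and the labels do not say whether it was added as protein or expressed from a vector. Nor is it stated that replicates came from separate cultures, so errors and p-values below reflect the spread among these arrays alone, and that spread may be technical. The brightest probe set of CSF3 itself went from 4.83 ± 0.30 to 5.96 ± 0.042 (SD, n = 3), a log2 change of 1.12 (limma adjusted p = 0.000371). Arrays of a group correlated at 0.994 or more over probe sets, and arrays of different groups at 0.970 to 0.974. Some markers that define epithelial cells lay low. On the Ctrl arrays CDH1, which encodes E-cadherin, stood at 2.20 ± 0.086 in log2 signal, KRT19 at 2.61 ± 0.12 and EPCAM at 3.63 ± 0.047 (SD, n = 3), and on the CSF3 arrays they stood at 2.24, 3.07 and 3.30. KRT8 and KRT18, which encode the keratins of simple epithelia, had Ctrl signals of 6.37 and 7.26. VIM and ZEB1, mesenchymal genes added after their values were seen, had Ctrl signals of up to 8.38 and 8.90. Several of these markers changed as well. All 8 probe sets of KRT8 were lower on the CSF3 arrays, with changes of -1.87 to -0.76, as were both of VIM, at -1.12 and -0.91, and all 7 of ZEB1, from -1.37 to -0.42, while the 2 of KRT18 stood at -0.090 and 0.22. The part of these marker changes in the falls of ADGRG6 and ADGRA3 was not tested. The array has 23 background probe sets, named by GC content, and 18 of them had Ctrl signals below 4. CDH1, KRT19 and EPCAM thus lay within the range of most background probe sets. The rest, of the highest GC content, read 4.78 to 9.43, a range that holds the Ctrl signals given above for KRT8, KRT18, VIM and ZEB1. The label HCT116 is therefore used below only as the labels give it.

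The signal of a gene on these arrays also moved with its brightness. Of all genes, those below the median signal had a median log2 change of 0.31 and those above it -0.13, and the median of all genes was 0.16. All 23 background probe sets read higher on the CSF3 arrays, by 0.0050 to 0.12 for the 13 of lower GC content and by 0.13 to 0.34 for the 10 of higher GC content. GAPDH has control probe sets at either end of its transcript, whose difference reflects RNA integrity and labelling. Its 3' minus 5' difference stood at 0.306 ± 0.0067 with Ctrl and at 0.682 ± 0.0026 with CSF3 (SD, n = 3). A two-sided exact permutation test gave p = 0.1, and no smaller value is possible with 3 arrays a group. The part of these shifts in the members' changes was not tested. Fewer cells that express a gene and less RNA per cell cannot be told apart in such bulk samples.

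Across the family the changes were small, apart from ADGRG6 and ADGRA3. By limma with an adjusted p under 0.05, 19 of the 30 members were higher and 5 were lower, beside 45.4% and 27.1% of all genes, and 6 were not called. On the same rule after quantile normalization, 9 were higher and 4 lower. The 3 CSF3 arrays lay wholly above the 3 Ctrl arrays for 19 members and wholly below for 5, beside 47.2% and 29.1% of all genes. Since the family was proposed from this comparison, nothing is read from these shares. The median change of the family was 0.31. Apart from ADGRG6 and ADGRA3, the other 28 changes ran from -0.60 to 0.55, with standard errors from 0.049 to 0.14 over the family.

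**Figure D1:**
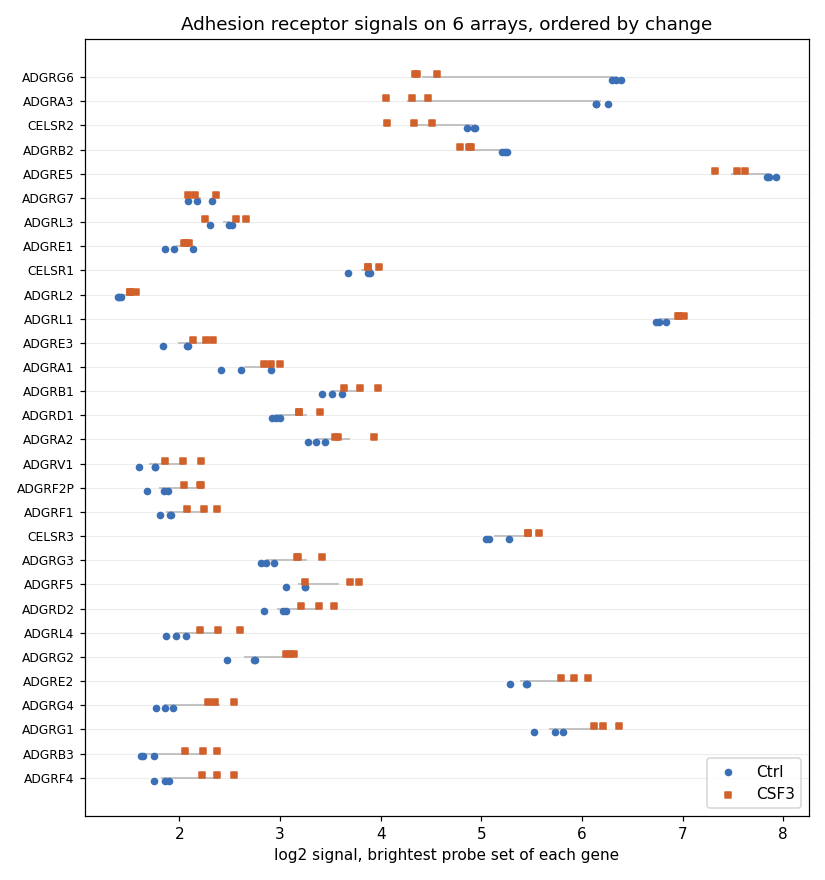
Log2 signal of the brightest probe set of each of the 30 adhesion receptors on 3 Ctrl arrays (circles) and 3 CSF3 arrays (squares), ordered from the largest fall to the largest rise, with a line joining the group means. ADGRG6 and ADGRA3 show the only gaps of more than 1 on the log2 scale, and most members with signals below 4 sit slightly to the right on the CSF3 arrays.

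ADGRG6, also known as GPR126, is a receptor for collagen IV, laminin-211 and prion protein that raises cyclic AMP and is needed for Schwann cells to myelinate. Its brightest probe set read 6.33, 6.38 and 6.30 on the Ctrl arrays and 4.56, 4.34 and 4.36 on the CSF3 arrays. All CSF3 values lay far below all Ctrl values. The log2 change was -1.92 ± 0.072 (SE), a 3.78-fold lower signal if the deposited logarithm has base 2. Within its bin of 906 genes of similar mean signal, whose median change was -0.12, 1 gene had a lower change.

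ADGRA3, also known as GPR125, marks spermatogonial stem cells and has been tied to planar cell polarity. Its brightest probe set read 6.26, 6.13 and 6.13 on the Ctrl arrays and 4.31, 4.05 and 4.47 on the CSF3 arrays, again with no overlap. The log2 change was -1.90 ± 0.11 (SE), or 3.73-fold lower. In the same bin of 906 genes, 2 genes had a lower change.

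The 300-base promoter windows of ADGRG6, ADGRA3 and ADGRG1 show which sequence surrounds their starts. They come from RefSeq on GRCh38.p14, whose table held 20 of the 30 members in 33 windows. The windows were searched on both strands for the NF-κB consensus, because the title of the series names p65, for the AP-1 motif TGANTCA and for the GC box GGGCGG, and capitals mark the matches. The first is ADGRG6 (chr6:142301757-142302056, plus strand), then ADGRA3 (chr4:22516017-22516316, minus strand), and last, as a bright member that read higher, the start of ADGRG1 that lies furthest into the gene (chr16:57628380-57628679, plus strand).
ADGRG6: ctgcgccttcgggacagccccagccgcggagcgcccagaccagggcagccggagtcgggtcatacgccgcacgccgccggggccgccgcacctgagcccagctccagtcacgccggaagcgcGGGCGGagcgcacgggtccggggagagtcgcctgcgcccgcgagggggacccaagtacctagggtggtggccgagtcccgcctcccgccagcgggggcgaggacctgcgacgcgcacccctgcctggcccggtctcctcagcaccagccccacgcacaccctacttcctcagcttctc
ADGRA3: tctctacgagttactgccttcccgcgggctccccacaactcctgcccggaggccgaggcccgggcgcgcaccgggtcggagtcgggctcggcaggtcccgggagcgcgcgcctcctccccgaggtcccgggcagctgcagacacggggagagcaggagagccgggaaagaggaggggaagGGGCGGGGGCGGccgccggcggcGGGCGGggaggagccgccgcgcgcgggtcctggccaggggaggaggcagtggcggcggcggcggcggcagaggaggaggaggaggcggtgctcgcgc
ADGRG1: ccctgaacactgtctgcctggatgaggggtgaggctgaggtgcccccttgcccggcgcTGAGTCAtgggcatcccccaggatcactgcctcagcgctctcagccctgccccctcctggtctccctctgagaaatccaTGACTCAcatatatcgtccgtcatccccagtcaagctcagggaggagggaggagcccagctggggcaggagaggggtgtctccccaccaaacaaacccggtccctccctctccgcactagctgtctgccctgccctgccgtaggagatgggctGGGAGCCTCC
The ADGRG6 window held 1 match to GGGCGG and 36 CG dinucleotides, and its GC content was 75.3%. The ADGRA3 window held 3 matches to GGGCGG and 40 CG dinucleotides, at 78.3% GC, and neither window matched the NF-κB consensus or TGANTCA. The ADGRG1 window held 1 match to the NF-κB consensus, 2 to TGANTCA and 8 CG dinucleotides, at 64.3% GC. The other 2 windows of ADGRG1 held no match to any of the motifs. CELSR3, another bright member that read higher, had a window without the NF-κB consensus or TGANTCA and with 2 matches to GGGCGG. The same held for the windows of CELSR2 and ADGRB2, which read lower. Of all 35116 windows of this length, 11.3% held the NF-κB consensus, 7.71% TGANTCA and 45.0% GGGCGG, and the median GC content was 58.7%. A match describes letters and is not a bound site, and its absence from these windows says nothing of the factors.

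The probe sets of ADGRG6 did not move as one. It has 7, of which 2 (11725190_a_at and 11729550_a_at) hold identical values on all 6 arrays and were counted once. That shared measurement read 5.57, 5.54 and 5.57 on the Ctrl arrays and 4.26, 3.998 and 4.36 on the CSF3 arrays, a change of -1.36 ± 0.094 (SE). A pair of dim probe sets, 11725188_a_at and 11725189_x_at, changed by -0.55 ± 0.11 and -0.35 ± 0.076. Probe set 11729549_s_at read 3.14, 2.98 and 3.17 against 3.02, 2.92 and 2.59, with a change of -0.25 ± 0.12 and groups that overlapped. The last, 11762503_at, went the other way, from 1.87, 2.02 and 1.95 to 2.40, 2.11 and 2.17, a change of 0.28 ± 0.089. ADGRG6 was the only member with distinct probe sets called in both directions. After quantile normalization the rise of 11762503_at was 0.055 and was not called, while the other 5 distinct probe sets were called lower. The mean change of the 6 distinct probe sets was -0.69.

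ADGRA3 has 2 probe sets. The dimmer one, 11761997_at, read 3.92, 3.83 and 3.97 on the Ctrl arrays and 3.38, 3.74 and 2.59 on the CSF3 arrays. All CSF3 values lay below the Ctrl values, with a wide spread, and the change was -0.67 ± 0.25 (SE). The mean of both probe sets changed by -1.29. After quantile normalization the dimmer one stood at -0.71 and was not called, while the brightest was called lower at -1.72.

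**Figure D2:**
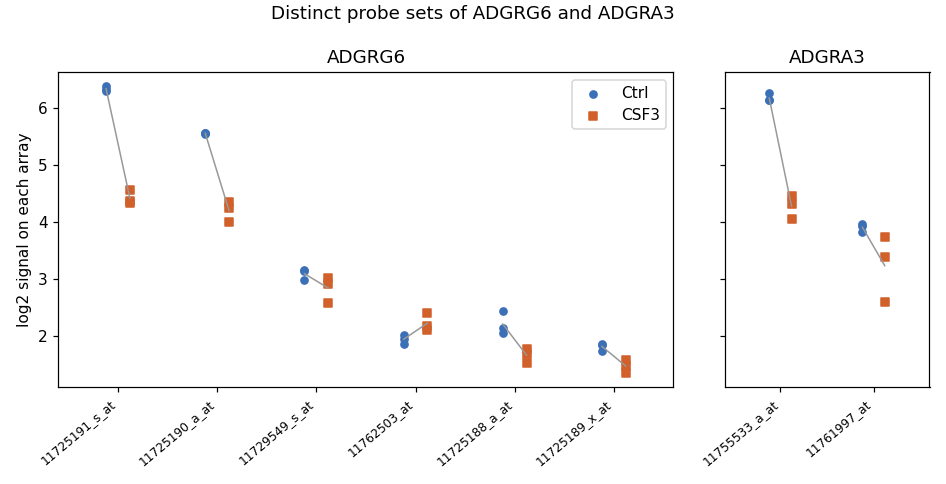
Log2 signal on each Ctrl array (circles) and CSF3 array (squares) for the 6 distinct probe sets of ADGRG6 and the 2 of ADGRA3, with a line joining the group means. The 2 brightest probe sets of ADGRG6 and the brightest of ADGRA3 drop by 1.36 to 1.92, and 11762503_at of ADGRG6 rises.

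Among the EGF-module receptors, ADGRE5 (CD97), a leukocyte antigen also made by epithelial tumours that binds CD55, was slightly lower. Its brightest probe set read 7.85, 7.92 and 7.84 on the Ctrl arrays and 7.62, 7.54 and 7.32 on the CSF3 arrays. The groups did not overlap, the change was -0.38 ± 0.084 (SE), and the second probe set gave -0.52 ± 0.066. After quantile normalization the first was -0.19 and no longer called, while the second was -0.26 and still called lower. ADGRE2 (EMR2), a myeloid receptor for chondroitin sulfate, read higher. Its values were 5.44, 5.29 and 5.45 on the Ctrl arrays and 5.80, 6.06 and 5.92 on the CSF3 arrays, a change of 0.53 ± 0.083. All 7 of its probe sets had positive changes, from 0.14 to 0.53, and 2 of them were called higher, beside 36.7% of all probe sets. After quantile normalization the brightest stood at 0.77 and 11752837_x_at at 0.41, both called higher. The rest were not called and ran from -0.0081 to 0.27. ADGRE2 and ADGRE5 have near-identical EGF modules, so their probe sets may share signal. ADGRE1 and ADGRE3, other myeloid receptors, changed by 0.090 ± 0.077 and 0.25 ± 0.087 from Ctrl signals of 1.98 and 2.00.

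ADGRG1 (GPR56), a receptor for collagen III and transglutaminase 2 that shapes the cerebral cortex, read higher on all 3 of its probe sets. The brightest read 5.52, 5.81 and 5.73 on the Ctrl arrays and 6.37, 6.12 and 6.21 on the CSF3 arrays. The groups did not overlap, and the change was 0.55 ± 0.095 (SE), with 0.51 ± 0.058 and 0.26 ± 0.081 on the other 2. Among the 907 genes of similar signal, whose median was -0.21, ADGRG1 lay at percentile 95.1. Its RefSeq neighbour ADGRG3 (GPR97), a granulocyte receptor, changed by 0.38 ± 0.081. ADGRG2, a receptor of the epididymis, and ADGRG4 changed by 0.44 ± 0.084 and 0.54 ± 0.082, and ADGRG7 by 0.0052 ± 0.094, the last with overlapping groups. The 4 had Ctrl signals of 1.85 to 2.87.

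Latrophilins bind teneurins and FLRT proteins across cell contacts. ADGRL1 read 6.73, 6.83 and 6.77 on the Ctrl arrays and 6.95, 6.97 and 7.01 on the CSF3 arrays, a change of 0.20 ± 0.053 (SE) with no overlap. Its other probe set, 11721891_at, gave -0.16 ± 0.14 with overlapping groups, so the direction of ADGRL1 rests on 1 probe set. ADGRL2, ADGRL3 and the endothelial ADGRL4 had Ctrl signals of 1.41, 2.44 and 1.96 on their brightest probe sets. These changed by 0.12 ± 0.049, 0.051 ± 0.11 and 0.43 ± 0.11. For ADGRL3, probe set 11726897_s_at rose by 0.54 ± 0.074 without overlap and was called, also after quantile normalization at 0.32. Its probe set 11726898_s_at changed by 0.21 ± 0.093 and was not called. The other ADGRL4 probe set changed by 0.070 ± 0.060 and was not called. The other ADGRL2 probe set was called higher at 0.19 ± 0.063, but not after quantile normalization, at 0.045.

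The Flamingo cadherins, which set planar cell polarity, were split. CELSR2 read 4.92, 4.94 and 4.85 on the Ctrl arrays and 4.07, 4.51 and 4.34 on the CSF3 arrays, with a change of -0.60 ± 0.11 (SE) and -0.23 ± 0.057 on its other probe set. CELSR3 went up instead, from 5.28, 5.08 and 5.04 to 5.46, 5.57 and 5.46, a change of 0.36 ± 0.077, while its dim probe set changed by 0.15 ± 0.082 with overlapping groups. Neither gene's groups overlapped on the brightest probe set. CELSR1 changed by 0.094 ± 0.074 on its brightest probe set, where its groups overlapped. Its other probe set was called higher at 0.28 ± 0.078 without overlap, but not after quantile normalization, at 0.071.

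Of the brain angiogenesis inhibitors, ADGRB2 read 5.26, 5.23 and 5.21 on the Ctrl arrays and 4.90, 4.88 and 4.78 on the CSF3 arrays. This change of -0.38 ± 0.055 (SE) had no overlap, but its dimmer probe set gave 0.15 ± 0.061. ADGRB1, which signals engulfment of apoptotic cells through ELMO and DOCK1, changed by 0.29 ± 0.097, and ADGRB3, a synaptic receptor for C1q-like proteins, by 0.55 ± 0.088 from a Ctrl signal of 1.67. The second probe set of ADGRB3 changed by 0.069 ± 0.061. ADGRA2 (GPR124), the partner of RECK in WNT7 signalling, changed by 0.32 ± 0.11, and ADGRA1 by 0.27 ± 0.12 with overlapping groups.

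All 4 measured ADGRF genes were called higher, from Ctrl signals between 1.80 and 3.19, a range of signal in which most genes were. After quantile normalization ADGRF4 alone of the 4 was called. ADGRF5, a regulator of lung surfactant, has 10 probe sets, all with positive changes from 0.22 to 0.49. Of these 7 were called higher, beside 36.7% of all probe sets, and 1 after quantile normalization. Its brightest read 3.25, 3.24 and 3.06 on the Ctrl arrays and 3.78, 3.70 and 3.24 on the CSF3 arrays, so the groups overlapped, and the change was 0.39 ± 0.14 (SE). ADGRF1, a receptor for the lipid synaptamide, changed by 0.36 ± 0.084. ADGRF4 and the neighbouring pseudogene ADGRF2P changed by 0.55 ± 0.089 and 0.35 ± 0.078. The remaining members were ADGRD1, ADGRD2 and ADGRV1, the last mutated in Usher syndrome, with changes of 0.30 ± 0.071, 0.40 ± 0.098 and 0.33 ± 0.098.

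These small rises lay in the signal range where most genes read higher. All 21 members below the median signal of all genes had positive changes, with a median of 0.33 beside 0.31 for all genes below it. Of these 21, 15 were called higher and 0 lower, beside 63.6% and 7.49% of all genes in that range. With the median change of genes in the same of 20 signal bins subtracted, 10 of the 21 were above 0, 10 below and 1 at 0, within a range of -0.31 to 0.27. After quantile normalization 5 of the 21 were still called, all higher. The 9 members above the median signal were divided, 4 called higher and 5 lower, and after quantile normalization 4 higher and 4 lower. Under that normalization ADGRB2 stood at -0.18, ADGRL1 at 0.42 and CELSR3 at 0.60.

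**Figure D3:**
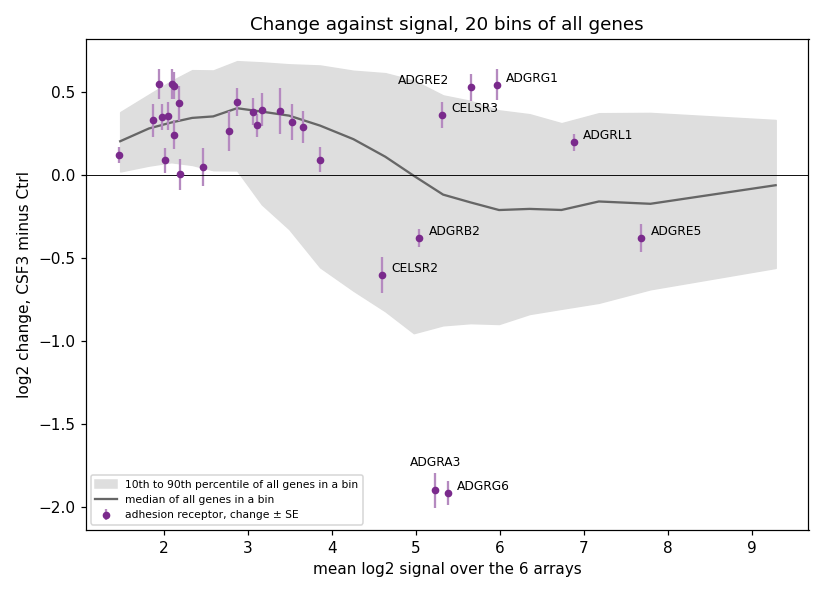
Change of each adhesion receptor (points, ± SE, CSF3 minus Ctrl, log2) against its mean log2 signal over the 6 arrays, with the median (line) and the range between the outer deciles (band) of all genes in 20 bins of signal. ADGRB3, ADGRG1 and ADGRE2 lie above the band, ADGRG6 and ADGRA3 lie far below it, and ADGRG7, at 0.0052, lies just below it among the dim members.

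Most leukocyte, fibroblast and endothelial markers also read higher. Of the 4 measured leukocyte markers (PTPRC, CD3E, CD14 and LYZ) 3 were higher by limma, with Ctrl signals of 1.42 to 3.39. Fibroblast markers (COL1A1, COL1A2, DCN and PDGFRB) were higher for 3 of 4, with Ctrl signals of 1.97 to 3.56, and endothelial markers (PECAM1, CDH5, KDR and VWF) for 4 of 4, with Ctrl signals of 2.06 to 3.85. Every one of these markers lay below the median signal, where 63.6% of all genes were called higher. Their median changes were 0.26, 0.53 and 0.56. On their brightest probe sets COL1A2 at 0.95, PECAM1 at 0.75 and DCN at 0.74 lay above the highest dim member at 0.55. Their other probe sets changed less, by 0.12 to 0.39 in COL1A2, 0.072 to 0.38 in DCN and 0.27 in PECAM1. These markers lay in the signal range where 18 of the 23 background probe sets lay, and their part in the members' changes was not tested.

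Probe sets of one gene were then compared directly. The 75 distinct member probe sets held 40 called higher and 11 called lower, beside 36.7% and 28.8% of all probe sets. Of the 24 members with several probe sets, 17 had only positive changes, 3 (ADGRA3, ADGRE5 and CELSR2) only negative ones, and 4 (ADGRB2, ADGRE1, ADGRG6 and ADGRL1) both. The change of the brightest probe set was set against that of each other probe set of its gene, array by array. In this fit 12 of 45 distinct pairs were called by limma, beside 41.4% of all pairs on the array. They were the 5 pairs of ADGRG6 and 7 pairs of 7 other genes, ADGRA3, ADGRB2, ADGRB3, ADGRE2, ADGRL3, ADGRL4 and CELSR2. For ADGRG6 the change of the brightest probe set minus that of the others ran from -2.20 ± 0.077 to -0.56 ± 0.11 (SE). The same difference was -1.23 ± 0.34 in ADGRA3 and -0.53 ± 0.080 in ADGRB2. The sizes of these falls therefore depend on the probe set. With each Ctrl array left out in turn, 7, 8 and 7 of the 45 pairs were called (without replicate 1, 2 and 3).

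**Figure D4:**
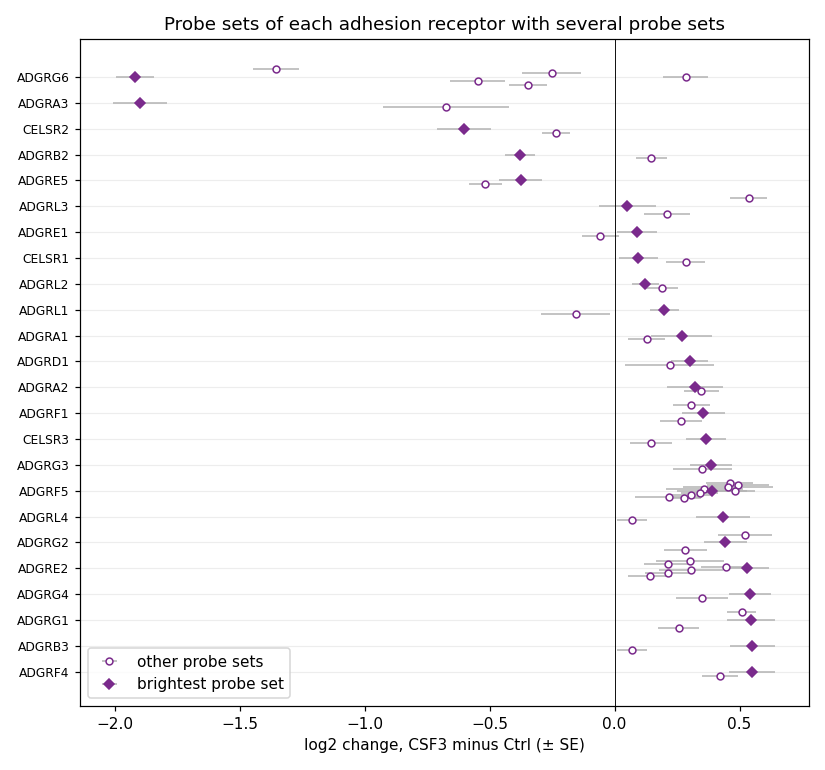
Change (CSF3 minus Ctrl, log2, ± SE) of each distinct probe set of the 24 adhesion receptors with several probe sets, with the brightest probe set as a filled diamond. The probe sets of ADGRG6 spread from -1.92 to 0.28, whereas the 10 of ADGRF5 lie between 0.22 and 0.49.

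Genes that work with the receptors were counted from lists taken by function, to be read beside the 45.4% of all genes called higher and the 27.1% called lower. Of the 16 G protein α subunits, 4 rose and 7 fell, with a median change of -0.12 beside 0.16 for all genes. In this list 11 genes lay above the median signal. There 46.8% of all genes were called lower and 27.1% higher, with a median change of -0.13. GNA12, which couples receptors to RhoA, fell by 0.98 on the log2 scale, from 5.70 ± 0.041 to 4.72 ± 0.082 (SD, n = 3, limma adjusted p = 2.35e-05). Both other probe sets of GNA12 changed by only -0.17. GNAQ, which activates phospholipase C, fell by 0.85 (limma adjusted p = 3.88e-05), although its 7 probe sets ranged from -1.47 to 0.037. GNAI1, which inhibits adenylyl cyclase, fell by 0.57 (limma adjusted p = 0.000116), with -0.21 and -0.30 on its other probe sets. After quantile normalization 2 of the 16 rose and 5 fell.

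Of 10 genes of RhoA and Rac signalling, 6 fell and 1 rose. All 10 lay above the median signal, where 46.8% of all genes were called lower and 27.1% higher. DOCK1, the Rac exchange factor that acts with ELMO below ADGRB1, fell by 1.70 ± 0.077 (SE), from 6.58 ± 0.066 to 4.88 ± 0.13 (limma adjusted p = 9.46e-06), and its dimmer probe set changed by -0.58. ROCK1, a kinase that RhoA activates, fell by 0.81 ± 0.062 (limma adjusted p = 4.81e-05), while its dimmer probe set changed by 0.18 ± 0.063. ELMO1, the partner of DOCK1, rose by 0.62 ± 0.047 (limma adjusted p = 4.96e-05). The median of the list was -0.28, and after quantile normalization 2 rose and 5 fell.

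Genes of cyclic AMP signalling went both ways, with 5 of 13 up and 5 down. ADCY7, an adenylyl cyclase, fell by 0.89 ± 0.050 (SE, limma adjusted p = 1.61e-05) on its brightest probe set, and its other 2 gave 0.23 and -1.81. CREB1, the transcription factor that cyclic AMP activates, fell by 1.07 ± 0.076 (limma adjusted p = 3.68e-05) on its brightest probe set. Of its other probe sets 1 changed by 0.80 ± 0.13, and the rest by -0.77 to -0.19. ADCY9, another cyclase, fell by 1.32 ± 0.12 (limma adjusted p = 9.41e-05), with changes of 0.0020 and 0.11 on its other probe sets. The median of this list was -0.029, and 0.034 after quantile normalization, where 4 rose and 6 fell.

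Of 30 ligands and binding partners, 21 rose and 3 fell, with a median of 0.33. In this list 23 genes lay below the median signal, where 63.6% of all genes were called higher with a median of 0.31. After quantile normalization 10 rose and 3 fell. CD47, a membrane protein that signals against phagocytosis, fell by 0.74 ± 0.070 (SE, limma adjusted p = 0.000114), and its other 2 probe sets changed by -2.13 and -0.76. FLRT1 and FLRT3, latrophilin ligands, rose by 0.85 ± 0.083 and 1.04 ± 0.15 (limma adjusted p = 0.000131 and 0.000658) from Ctrl signals of 2.75 and 2.55. PRNP, which encodes the prion protein that ADGRG6 binds, fell by 0.40 ± 0.070 (limma adjusted p = 0.00185). Genes for chains of the other ADGRG6 ligands named above read higher on their brightest probe sets, but lay below the median signal of all genes. COL4A1, COL4A2 and LAMA2 changed by 0.58 ± 0.14, 0.34 ± 0.073 and 0.27 ± 0.095, from Ctrl signals of 2.85, 3.00 and 1.95. The median changes of all genes in their signal bins were 0.38, 0.38 and 0.32. TGM2, an ADGRG1 ligand, rose by 0.46 ± 0.076 (limma adjusted p = 0.00138), and COL3A1, for collagen III, by 0.38 ± 0.071. Their Ctrl signals were 5.21 and 1.67. These genes of ADGRG6 and ADGRG1 ligands were chosen after their values were seen.

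Planar polarity partners of the CELSR proteins were divided, with 6 of 16 up and 5 down. Their median was -0.030 as deposited and 0.14 with quantile normalization. FZD6, a Frizzled receptor that acts with the CELSR proteins, fell by 0.84 ± 0.054 (SE, limma adjusted p = 2.64e-05), and its second probe set fell by 1.45. PRICKLE1 and PRICKLE2, cytoplasmic polarity proteins, rose by 0.56 ± 0.052 and 0.60 ± 0.059 (limma adjusted p = 0.000103 and 0.000137).

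Set beside other receptors of the same membrane topology, the 63 genes named GPR and a number had 42 higher and 7 lower, with a median of 0.38. The 11 genes of the Frizzled family with SMO had 1 higher and 7 lower, with a median of -0.21. Of all genes, 45.4% were called higher and 27.1% lower. In the Frizzled family 6 genes lay below the median signal of all genes and 5 above it. Its falls also depended on the probe set. FZD1 changed by 0.27 on its other probe set, FZD7 by -0.77 and 0.25, and FZD6 by -1.45. The adhesion receptors, with 19 higher and 5 lower of 30 and a median of 0.31, were not tested against either family. The families were not matched by signal.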

How the data were processed

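Total RNA of 3 Ctrl and 3 CSF3 samples was labelled with biotin, per the labels, and the names of the control probe sets are those of an Affymetrix array. The authors deposited a table of 49395 probe sets, with log2 values as far as their range shows. How background was corrected, probes summarised and arrays normalized, and the base of the logarithm, is not given in the sources used here. No scanner files or detection calls were used, and precision is limited by the number of arrays.

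Names came from the annotation of the platform, in which 44988 probe sets have 1 gene, 1832 several, 2473 none and 102 are controls, and 0 of those with several genes include a member. All 30 member symbols were the same in RefSeq. The probe set with the highest mean stood for its gene. CSF3 minus Ctrl was fitted with limma 3.58.1 (lmFit, eBayes) in R 4.3.3 over all 18132 genes, over all 44988 probe sets, and over 26824 array-wise differences between the brightest and each other probe set of a gene, without pairs of identical values. There was no filter and no covariate, with Benjamini-Hochberg adjustment over each fit (threshold 0.05). Technical values were compared by exact permutation tests.

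The members and lists were chosen with earlier results of these data known. The rule for named genes takes all members, the values of every array for members that changed by at least 1, for the 6 with the highest mean and for those with probe sets called in both directions, the 3 genes of each partner list with the smallest p, and CSF3. CELSR2, ADGRB2, ADGRF5 and the dimmer ADGRA3 probe set were added with their arrays' values after these were seen.

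The fits were checked on simulated data, with 50 changed features of each size. The gene fit called 8% of log2 changes of 0.25, 64% of 0.5 and 88% of 1. In the pair fit these shares were 2%, 12% and 66%. Each simulation changed 200 features in all, whereas 13148 of 18132 genes and 11102 of 26824 pairs were called in the data. The adjusted threshold was therefore stricter in the simulation, and its shares do not give the power of the fits to these arrays. Members and pairs that were not called may still differ. The alternatives were quantile normalization, array medians subtracted, the 30% dimmest left out, the mean of all probe sets, no _x_at or _s_at probe sets, trend and robust settings, the replicate block, a change of at least 1 and leaving out each array. Subtraction of the median of 20 signal bins was added after seeing the data.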

Additional observations from a re-analysis of the deposited data

How the results depend on the processing

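Of the 30 members 24 were called, and 51 of the 75 distinct probe sets and 12 of the 45 pairs. After quantile normalization 13 members were called, all among the 24, and 26 probe sets, of which 3 were not called as deposited, with 7 of 16 G protein α subunits (11 as deposited) and 13 of 30 ligands (24 as deposited). Over all genes it called 7107 higher and 3637 lower, beside 8227 and 4921. With the 30% dimmest left out, 15 of 16 remaining members, 24 of 30 probe sets and, where both probe sets passed, 5 of 12 pairs were called. A change of at least 1 left 2 members. Same-numbered arrays had deviations from their group means that correlated at 0.027 to 0.038, so the numbers did not pair the samples. The fit with the replicate block called 24 members, 53 probe sets and 12 pairs, and moved no count by over 1.5 times. Leaving out each array in turn called 21 to 23 members, 37 to 53 probe sets and 7 to 12 pairs, and the cause of these moves was not tested. Without _x_at and _s_at probe sets ADGRL1 turned to -0.16. With the bin median subtracted, of the members called ADGRA2, ADGRB1, ADGRD1 and ADGRE3 turned to -0.038, -0.071, -0.084 and -0.073, and 6 that were not called turned to between -0.31 and -0.083.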

Other observations

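Identical probe sets were not particular to ADGRG6. Among the 44988 probe sets with 1 gene, 120 fell into 60 sets with the same values on all 6 arrays, 59 of them within 1 gene and 1 across genes.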
